A study of Mus musculus with 16 samples.

Results

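Weak CMC-responsive positions are nucleotides of mouse rRNA at which reverse transcription stopped more often after CMC than after mock treatment, but too seldom or by too small a factor to be called as pseudouridine sites. They numbered 341 of the 6874 positions of 18S, 28S, 5.8S and 5S rRNA that were examined. Percent termination was taken as the read starts at a nucleotide over all read starts in the 65 nt that end there, and the ratio as CMC termination over that animal's mock termination. The 341 positions were chosen by these measured values: a mean CMC termination over 8 animals of at least 1%, and a mean log2 ratio, with 0.1 percentage points added to each termination, of at least 0.35, which is a 1.27-fold rise. Positions that reached both a termination of 3% and a ratio of 3 in either genotype, the thresholds at which a site is called, were left out. There were 70 such sites, and 4018 positions in all reached a mean CMC termination of 1%. Each position is named by the nucleotide 1 upstream of the stop, which is where an adduct would sit.

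The RNA came from CD4 T cells of female mice, activated for 20 h on plates coated with antibodies to CD3 and CD28. All animals, on a C57B6/J background according to the study's methods, carried Rnmt fl/fl, an allele of the mRNA cap methyltransferase gene Rnmt whose exon between loxP sites Cre can remove. The 4 control animals were CD4cre negative, and the 4 Rnmt cKO animals were CD4cre positive, a Cre expressed in the T cell lineage. The animals' age was not given in the labels. The labels name an isolation kit for naive CD4 T cells, and the study's methods one for CD4 T cells. Each animal gave a library treated with 0.17 M CMC and a mock library with none, with 300 ng of total RNA stated as the input, which made 16 libraries. Because the files hold rRNA alone, neither the T cell identity nor the loss of Rnmt was checked.

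Pseudouridine is an isomer of uridine that dyskerin, guided by H/ACA small nucleolar RNAs, places at fixed nucleotides of rRNA. The carbodiimide CMC reacts with pseudouridine, uridine and guanosine, and an alkaline wash then removes most of it from uridine and guanosine, so that the adducts that remain on pseudouridine stop reverse transcriptase 1 nt before they are reached. Stops also arise in mock libraries, from RNA breaks, structure and other modifications, which is why the ratio is taken.

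The uridine next to the stop was not used by the rule, so the bases were read first. The files give positions and no sequence. Parts of the 18S numbering could be tied to an 18S copy in the mouse genome, and the sites above the thresholds, not the weak positions, set the fit. This copy is the plus strand of chr17:39846353-39848201 (GRCm38), which the GENCODE annotation covers with a transcript of CT010467.1 on the minus strand and in part with the gene Gm42418 on the plus strand. It is 1849 nt long against 1871 nt in the files. With no shift the first 119 nt fitted, with 4 sites all next to a uridine, and with a shift of 5 nt a stretch of 1012 nt fitted, with 21 sites all next to a uridine. The stretch between, where 3 sites would fit a shift of 8 nt, and the 3′ end were not placed. They held 32 of the 86 weak positions of 18S. Read with no shift, 8 of these 32 had a uridine next to the stop, and with the shift of 5 nt 19 did. Because the shift that holds there was not settled, these 32 are outside the uridine shares given below. The pieces shown were picked because they hold runs of weak positions, whose nucleotides are in capitals. They are 18S nucleotides 25 to 45 (chr17:39846377-39846397, plus strand), 740 to 780 (chr17:39847097-39847137) and 890 to 925 (chr17:39847247-39847282).
18S 25-45: auaugcUugucUCAAagauua
18S 740-780: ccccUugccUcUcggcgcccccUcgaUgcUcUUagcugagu
18S 890-925: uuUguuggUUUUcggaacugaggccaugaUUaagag

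Of the 54 weak positions in the placed stretches of 18S, 48 (88.9%) had a uridine 1 nt upstream of the stop, against 22.7% of all placed positions and 24.4% of the 602 placed positions that reached 1% CMC termination and were neither weak positions nor sites. At the base before this nucleotide the share was 31.5% and at the base after it 50.0%. The 25 placed sites had a uridine there in all cases, which the fit itself imposed. Every one of the 8 weak positions between nucleotides 740 and 780 was a uridine, and so was each of the 4 in the run of uridines from 898 to 901. The exceptions were 6 positions. Nucleotides 37, 38 and 39 (C, A and A) followed directly on the weak uridine at 36, nucleotides 810 and 811 were a pair of adenosines in a run of A, and nucleotide 685 was a G.

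**Figure D1:**
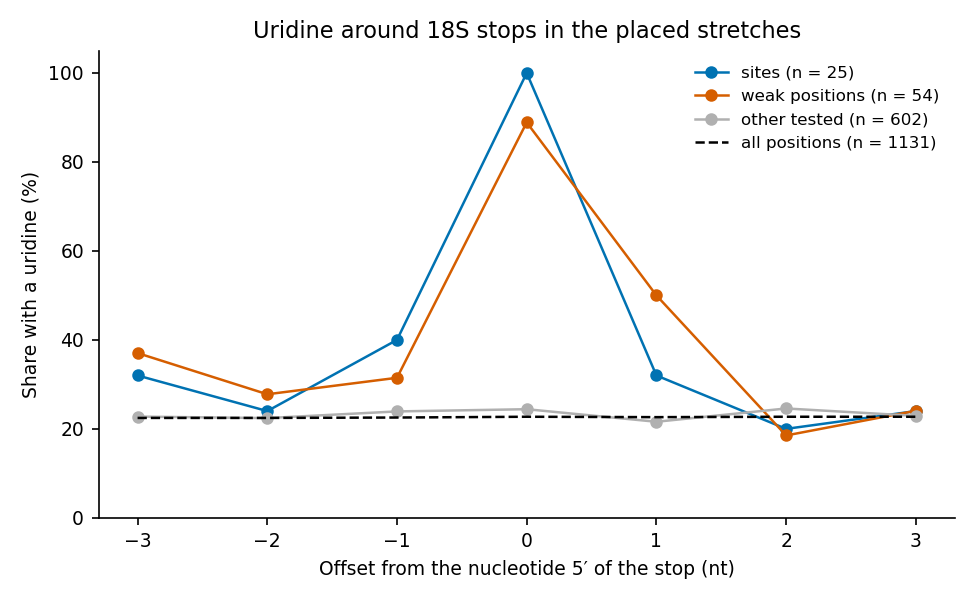
Share of positions with a uridine (vertical axis, %) at each offset from the nucleotide 5′ of the stop (horizontal axis, nt) in the placed stretches of 18S. The weak positions reach 88.9% at offset 0 and the other tested positions stay at 24.4%, close to the 22.7% of all positions; the 100% of the sites was fixed by the placement.

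The preference for uridine did not end at the lower threshold. The 602 placed positions of 18S that reached 1% CMC termination and were neither weak positions nor sites were split by base. Their median log2 ratio was 0.10 at the 147 uridines, and -0.16 at the 140 adenosines, -0.19 at the 151 cytidines and -0.11 at the 164 guanosines. Taken animal by animal, the uridine median lay between 0.06 and 0.16, and it was above the adenosine, the cytidine and the guanosine median in 8 of 8 animals. The smallest of these differences, 0.03 against guanosine, was in control animal 1, and over the 8 animals the difference from guanosine had a median of 0.23. Of the 220 uridines that reached 1% CMC termination, 48 were weak positions and 25 were sites, whereas 4 of 144 adenosines, 1 of 152 cytidines and 1 of 165 guanosines were weak positions.

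In 5S rRNA, the small RNA of the large subunit that RNA polymerase III makes, the 12 weak positions lay between nucleotides 32 and 86, and no site passed the thresholds. The annotated gene Rn5s (chr8:123598158-123598276, minus strand, GRCm38) is 119 nt long, against 120 nt in the files. With equal numbering, 1 of the 12 had a uridine 1 nt upstream, and with the numbering of the gene moved on by 1 nt, 11 of the 12 did (91.7%), against 21.2% of all positions. This placement was chosen after the bases had been seen, since no site in 5S could set it, and whether the files number 5S differently or the stops fell on the uridine itself was not tested. Nucleotides 30 to 90 of Rn5s (chr8:123598187-123598247) are shown with the 12 in capitals under that placement.
Rn5s 30-90: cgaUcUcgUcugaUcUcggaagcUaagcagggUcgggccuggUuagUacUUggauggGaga

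The weak positions were spread over all 4 rRNAs. There were 86 in 18S, 223 in 28S, 20 in 5.8S and 12 in 5S, which is 8.14, 8.05, 18.7 and 14.1 for each 100 positions that reached 1% CMC termination. Within 18S this density was 9.84 up to nucleotide 670, 8.02 from there to nucleotide 1200 and 6.36 beyond. Within 28S it stayed between 7.41 and 8.61 in all 4 stretches examined, although the first stretch, at the 5′ end, held 57 weak positions beside 1 site and the third, which takes in the middle of the molecule, held 100 beside 26 sites. With sites set aside, weak positions made up 8.10% of the positions with a CMC termination from 1 to 1.5%, 11% of those from 3 to 5% and 7.81% of those at 5% or more.

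**Figure D2:**
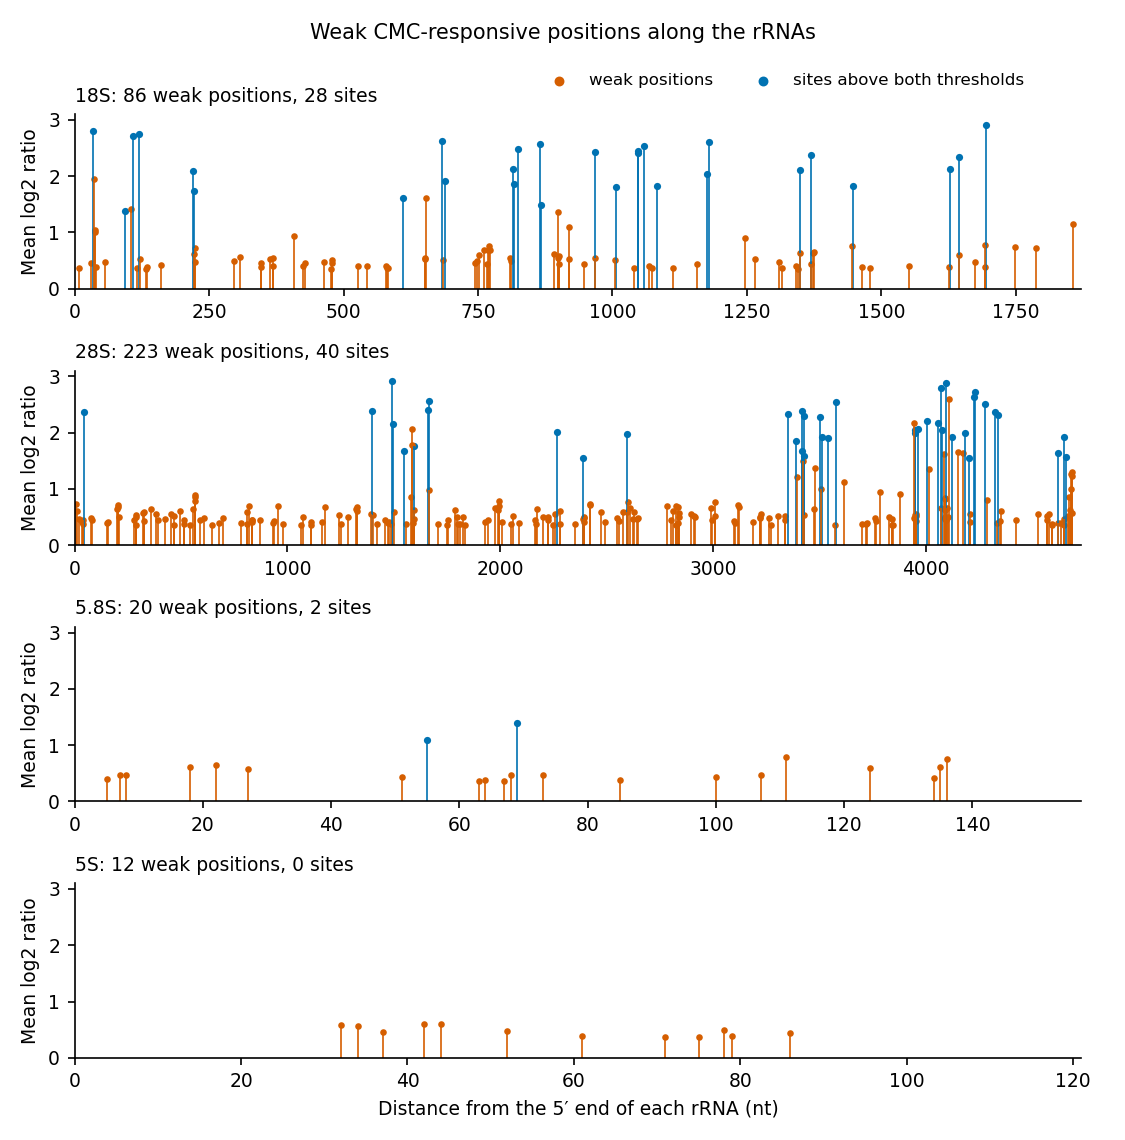
Mean log2 CMC over mock termination (vertical axis) of the weak positions and of the sites above both thresholds, by distance from the 5′ end of each rRNA (horizontal axis, nt). Weak positions lie along the whole of 18S and 28S, including the 5′ stretch of 28S that holds 1 site, while 5S has 12 weak positions and no site.

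Most weak positions were weak in every respect. The median CMC termination was 1.82% against a mock termination of 1.22%, and the median log2 ratio was 0.49, with a range from 0.35 to 2.60, against -0.03 over all 4018 positions. The log2 ratio was under 0.5 at 179 positions, at least 1 at 23 and at least 1.5 at 9. Both thresholds were missed by 267 positions, the ratio alone by 63 and the termination alone by 11, of which 3 were in 18S and 8 in 28S. As the rule used these values, they describe the choice and were not tested.

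**Figure D3:**
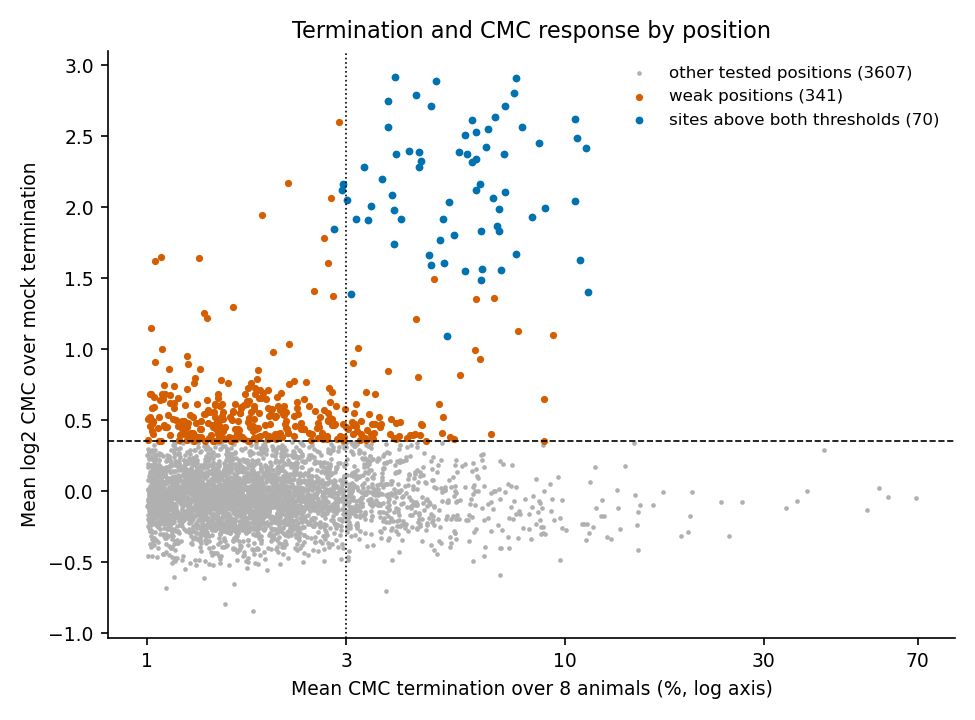
Mean CMC termination over 8 animals (horizontal axis, %, log scale) against the mean log2 CMC over mock termination (vertical axis) for the 4018 positions that reached 1%. The dashed line is the lower threshold of 0.35 and the dotted line the termination of 3%. The 341 weak positions fill the band above the dashed line, and 11 of them have the ratio of a site at under 3% termination.

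The thresholds cut through a continuum. Just inside the log2 ratio of 0.35 were 18S nucleotide 1345 and 28S nucleotide 2248, both at 0.35 when rounded, and just outside were 18S nucleotide 780 and 28S nucleotide 4088, both at 0.349 before rounding. At the CMC termination of 1%, 28S nucleotide 1111 (1.01%) and 18S nucleotide 685 (1.01%) were in, and 5.8S nucleotide 127 and 18S nucleotide 1545 (both 1.00% when rounded) were out. On the side of the sites, 28S nucleotide 4110 stayed among the weak positions with a termination of 2.98% in control and 2.80% in Rnmt cKO animals, and 28S nucleotide 4014 with ratios of 2.97 and 2.37. 18S nucleotide 93 and 28S nucleotide 4056 passed as sites in 1 genotype each, the first with a control ratio of 3.29 at 3.00% and the second with a Rnmt cKO ratio of 5.16 at 3.01%.

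Whether the weak positions recurred in an animal that was not used to choose them was asked by repeating the rule on 7 animals and reading the result in the eighth. Between 302 and 373 positions were chosen in this way. In the animal left out, their median log2 ratio was 0.36 to 0.58, against -0.05 to 0.14 over all positions that reached 1%. From 84.1 to 97.3% of them were above 0 there, against 43.8 to 60.5% of all positions. Again 53.4 to 76.2% of them exceeded 0.35, against 9.95 to 33.0% of the positions that reached 1% and were not sites. The 33.0% was in control animal 1. When the 4 control animals alone chose 502 positions, 87.8% were above 0 in the mean of the Rnmt cKO animals, with a median of 0.33. Of all positions that reached 1% in control animals, 43.3% were above 0 there. When the Rnmt cKO animals chose 345 positions, 89.6% were above 0 in the control mean, with a median of 0.45. Of all positions that reached 1% in Rnmt cKO animals, 49.9% were above 0 there. The animal left out was not fully independent of the others, because mock libraries with the same number deviated together across genotypes, and the highest medians, 0.58 and 0.55, were those of control animal 1 and Rnmt cKO animal 1. With both animals of a number left out, 306 to 391 positions were chosen, and the median in the animals left out was 0.35 to 0.57, with 82.7 to 96.2% above 0. The highest medians were again those of control animal 1 and Rnmt cKO animal 1, at 0.57 and 0.55.

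**Figure D4:**
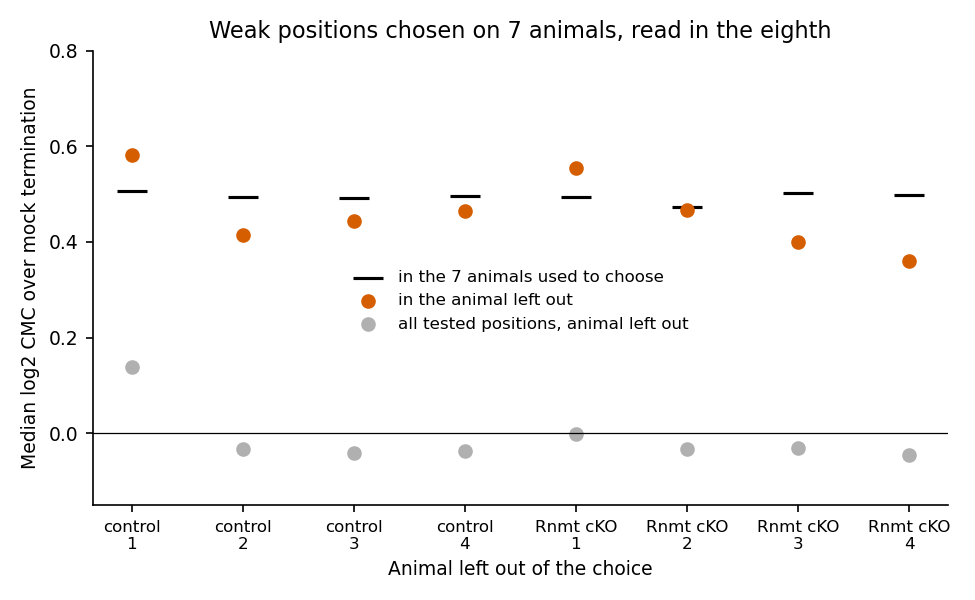
Median log2 CMC over mock termination (vertical axis) of weak positions chosen on 7 animals, in those animals (dash) and in the animal left out (orange), for each animal in turn (horizontal axis), beside all tested positions of the animal left out (grey). The values in the animal left out run from 0.36 to 0.58 and are above the grey points in all 8 animals.

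Control animal 1 stood apart. Its mock library differed from the other 3 control mock libraries by up to 45.2 chi-square units per degree of freedom over the counts, where the others differed among themselves by 2.49 to 5.51, and the mock library of Rnmt cKO animal 1 differed from its group by 12.9 to 14.9. The median log2 ratio over all positions that reached 1% was 0.14 in control animal 1 and between -0.04 and 0.00 in the other 7, and over the weak positions it was 0.71 against 0.42 to 0.58. Of the 341 weak positions, 235 were chosen again whichever single animal was left out. Without control animal 1 the rule chose 302 positions, of which 275 were among the 341. Without both animals numbered 1 it chose 306, of which 268 were among the 341. Among those in the placed stretches, the share with a uridine upstream was then 88.7% (47 of 53).

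The weak position with the highest log2 ratio was 28S nucleotide 4110. The CMC libraries gave 2.75, 2.83, 3.05 and 3.27% termination in the control animals and 3.13, 2.74, 2.89 and 2.43% in the Rnmt cKO animals, and its mock termination ran from 0.29 to 0.53% over the 8. Every CMC library was above every mock library, and the genotypes overlapped. The mean log2 ratio was 2.60 ± 0.27 (SD, n = 8), which is beyond the median of the 70 sites, 2.12, and only the termination of 3% kept it out.

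28S nucleotide 3946 followed at 2.17 ± 0.34 (SD, n = 8), with 2.49, 2.14, 2.46 and 2.06% termination after CMC in control and 2.69, 1.83, 2.01 and 1.72% in Rnmt cKO animals and a mock termination of 0.31 to 0.55%. The neighbours 28S nucleotides 1584 and 1585 formed a pair, with mean log2 ratios of 2.06 ± 0.26 and 1.78 ± 0.29 (SD, n = 8). Their CMC termination lay between 2.38 and 3.07% at 1584 and between 2.26 and 3.11% at 1585. At these positions too the CMC and mock ranges were apart in all animals.

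18S nucleotide 36, a uridine 2 nt downstream of the site at nucleotide 34, had a mean log2 ratio of 1.95 ± 0.43 (SD, n = 8). After CMC it stopped 1.75, 1.60, 2.09 and 1.80% of reads in control and 2.12, 1.87, 2.56 and 1.29% in Rnmt cKO animals, against 0.23 to 0.52% in mock libraries. Over the next bases the mean log2 ratios were 1.04 at nucleotide 37, 1.01 at 38, 0.38 at 39 and -0.28 at 40.

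28S nucleotide 4153 was the least secure of the 6 highest. Its mock termination rested on 1 read start in control animal 1 and 2 in Rnmt cKO animal 1, against 10 to 34 in the other mock libraries. Its log2 ratio was 3.18 and 3.23 in those animals, 1.00, 2.48 and 2.58 in the other control animals, and 0.73, 0.37 and -0.38 in the other Rnmt cKO animals. The mean of 1.65 ± 1.38 (SD, n = 8) therefore covered values on either side of 0.

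Among the 6 weak positions with the highest CMC termination, those with steady ratios were 18S nucleotide 920 and 28S nucleotides 3481 and 3618. 18S nucleotide 920, the second uridine of a UU shown above, stopped 8.22, 9.17, 10.3 and 10.1% of reads in control and 10.5, 9.60, 9.30 and 8.07% in Rnmt cKO animals. Its mock termination was already 3.06 to 5.74%, which left a log2 ratio of 1.1 ± 0.28 (SD, n = 8). At 28S nucleotide 3481 the mean CMC termination was 6.79 ± 0.56% and the log2 ratio 1.36 ± 0.25, and at 28S nucleotide 3618 they were 7.73 ± 0.57% and 1.13 ± 0.18 (SD, n = 8).

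In the remaining 3 the ratio varied between animals. At 5.8S nucleotide 67 the mock termination was 2.86% in control animal 1 and 6.40 to 8.76% in the other 7 animals, and the log2 ratio was 1.77 in that animal and -0.13 to 0.46 elsewhere. 28S nucleotide 834 had a log2 ratio of 1.09 in control animal 1, 0.85 in Rnmt cKO animal 1 and -0.46 to 0.83 in the others, and its mean of 0.40 stayed between 0.30 and 0.53 when 1 animal was left out. 28S nucleotide 3477 stopped 9.11 ± 0.86% of CMC reads in control and 8.70 ± 1.13% in Rnmt cKO animals, but the mock termination was 10.3, 6.44, 7.34 and 6.88% against 7.14, 2.83, 3.34 and 4.35% (SD, n = 4 each). Its log2 ratio was -0.02 to 0.43 in control animals, and 0.43, 1.31, 1.34 and 1.09 in Rnmt cKO animals.

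Weak positions were more frequent beside the sites. Of the 33 positions that reached 1% whose stop fell 1 nt 5′ of a site's stop, that is, on the nucleotide called as the site, 14 (42.4%) were weak positions. Of the 50 positions whose stop fell 1 nt 3′ of it, 9 (18%) were, and of the 3492 more than 5 nt from any site, 263 (7.53%) were. Even so, 218 of the 341 lay more than 20 nt from the nearest site. Of those next to a site, 28S nucleotide 1664 had the highest mean log2 ratio, 0.98 ± 0.21, followed by 18S nucleotide 1693 at 0.77 ± 0.17, 18S nucleotide 1446 at 0.76 ± 0.27 and 28S nucleotide 4072 at 0.66 ± 0.40 (SD, n = 8). In 28S nucleotide 1664 the CMC termination was 1.88 to 2.12% and the mock termination 0.77 to 1.11%, with no overlap.

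Single positions made up 224 of the 341, and the rest lay in 34 pairs, 9 triplets, 4 runs of 4 and 1 run of 6. The run of 6, 28S nucleotides 4089 to 4094, led up to the site at nucleotide 4095, whose mean log2 ratio was 2.89, and its own mean log2 ratios were 0.62, 0.81, 0.84, 0.47, 0.49 and 0.45. In 18S nucleotides 898 to 901, the run of uridines, the second base stood out at 1.37 ± 0.16 (SD, n = 8), and the others were at 0.54, 0.43 and 0.58. The run at 28S nucleotides 4685 to 4688, near the 3′ end, had mean log2 ratios of 1.26, 0.57, 1.22 and 1.30, but the values of single animals there ranged from -1.07 to 1.98.

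In 5.8S rRNA, which pairs with 28S in the large subunit, nucleotide 111 of 5.8S had the highest mean log2 ratio. Its log2 ratio was 0.64, 0.77, 0.83 and 0.93 in control and 0.88, 0.88, 0.74 and 0.72 in Rnmt cKO animals, the narrowest spread of the named positions (SD 0.10, n = 8). 5.8S nucleotide 22 had a log2 ratio of 0.89, -0.09, 0.46 and 0.55 in control and 0.91, 0.93, 0.79 and 0.75 in Rnmt cKO animals. 5.8S nucleotide 136 varied more than it responded, from -1.28 in control animal 1 to 1.93 in control animal 2.

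The 5S positions were small and regular. 5S nucleotide 42 had a mean log2 ratio of 0.61 ± 0.26, 5S nucleotide 44 of 0.60 ± 0.18 and 5S nucleotide 32 of 0.58 ± 0.20 (SD, n = 8), and each was above 0.35 in all 8 animals. The 12 positions of 5S had mean log2 ratios from 0.37 to 0.61, and their mean CMC termination did not exceed 3.64%.

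**Figure D5:**
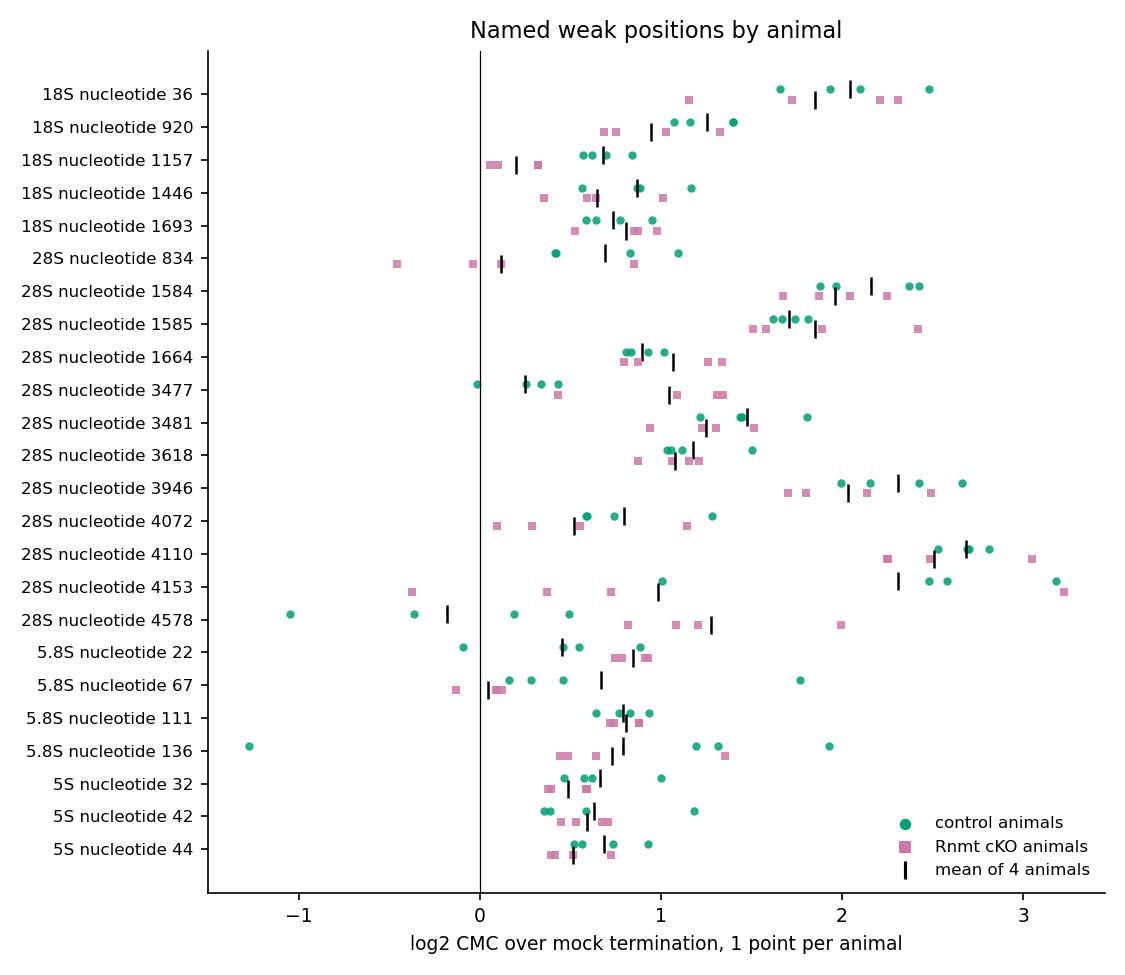
log2 CMC over mock termination (horizontal axis) of 24 named weak positions (vertical axis), 1 point for each of 4 control and 4 Rnmt cKO animals, with the mean of each genotype as a bar. The genotypes overlap at most positions. 28S nucleotide 4153 spreads from -0.38 to 3.23 and 5.8S nucleotide 111 from 0.64 to 0.93.

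The question of whether loss of Rnmt altered the weak positions was addressed by 3 tests of Rnmt cKO against control animals, each fitted over all 4018 positions. The rule used means over both genotypes and not their difference, but 216 of the 341 weak positions met the lower thresholds of 1% and 0.35 in each genotype on its own, 84 met them in control animals alone, 40 in Rnmt cKO animals alone and 1 in neither. A position of the last 3 kinds could enter through the genotype where it was high, so its genotype difference is a description. No weak position passed an adjusted p of 0.05 in any of them by the quasi-likelihood test of edgeR, and neither did any of the 4018 (0%). For the CMC response, the interaction of genotype and CMC with the animal as block, 22 of the 341 weak positions (6.45%) had an unadjusted p under 0.05 against 6% of all positions. For the CMC termination these were 48 (14.1%) against 15%, and for the mock termination 24 (7.04%) against 6.4%. Of these positions, 17 of the 22, 20 of the 48 and 8 of the 24 had not met the lower thresholds in both genotypes, so nothing is read from these shares. The median standard error of the log2 difference at a weak position was 0.19 for the interaction, 0.10 for the CMC termination and 0.16 for the mock termination. Differences of that order were not detectable, and those of several standard errors could also fall short of the adjusted threshold. At 28S nucleotide 157, which met the lower thresholds in control animals alone, a CMC difference of -0.44 ± 0.09 (SE) had an adjusted p of 0.0684 by edgeR. DESeq2 called 1 weak position for the interaction among 10 positions in all (0.249%), 5 for the CMC termination among 113 (2.81%) and 0 for the mock termination among 1 (0.0249%), and limma without a block on the number called no weak position in any of the 3. The 5 were 18S nucleotide 1310, 28S nucleotide 157 and 5.8S nucleotides 18, 22 and 67, of which 5.8S nucleotides 18 and 22 met the lower thresholds in both genotypes. Without both animals numbered 1, edgeR called 0 weak positions for the interaction among 2 positions (0.0498%) and 3 for the CMC termination among 16 (0.398%), namely 28S nucleotides 515, 835 and 4578, none of which met the lower thresholds in both genotypes. Without control animal 1, edgeR called 4 weak positions (1.17%) for the CMC termination among 26 positions (0.647%), 28S nucleotide 4578 and 5.8S nucleotides 134, 135 and 136. Of these, 5.8S nucleotides 135 and 136 met the lower thresholds in both genotypes. Their log2 differences were -1.34 ± 0.26 and -1.31 ± 0.24 (SE, adjusted p = 0.0478 and 0.0433 by edgeR). With all animals that of 5.8S nucleotide 136 was -1.07 ± 0.31 (SE, adjusted p = 0.172 by edgeR). Its mock log2 difference was -1.14 ± 0.42 and its interaction -0.11 ± 0.63 (SE, adjusted p = 0.658 and 0.966 by edgeR). The mean log2 ratios in control and Rnmt cKO animals were 0.61 and 0.60 at nucleotide 135, and 0.79 and 0.73 at 136. Control animal 1 had a CMC termination of 1.09% at nucleotide 136, within the 0.72 to 1.56% of the Rnmt cKO animals.

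The 3 smallest p for the interaction were at positions that met the lower thresholds in 1 genotype alone, and their values are therefore descriptive. The smallest was at 28S nucleotide 4578, which met them in Rnmt cKO animals. Its log2 ratio was 0.49, -1.05, -0.37 and 0.19 in control and 1.21, 0.82, 1.08 and 1.99 in Rnmt cKO animals, with no overlap between genotypes. The interaction was 1.59 ± 0.38 (SE) on the log2 scale with an adjusted p of 0.751 by edgeR, and it was the 1 weak position that DESeq2 called (adjusted p = 0.0367). Over 17 alternatives its adjusted p ranged from 0.0367 to 0.972, and 1 was under 0.05. 28S nucleotide 3477, which met them in Rnmt cKO animals, had an interaction of 0.81 ± 0.22 (SE) and 18S nucleotide 1157, which met them in control animals, one of -0.51 ± 0.14 (SE), each with an adjusted p of 0.784 by edgeR. At 18S nucleotide 1157, a uridine, the log2 ratio was 0.57 to 0.84 in control and 0.06 to 0.32 in Rnmt cKO animals.

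In the CMC libraries, 28S nucleotide 157 came closest to the threshold, although its mean log2 ratio reached 0.35 in control animals alone (0.55 against 0.26). After CMC its termination amounted to 2.42, 2.43, 2.69 and 2.47% in control and 2.09, 1.88, 1.75 and 1.67% in Rnmt cKO animals, so the genotypes were apart. The log2 difference was -0.44 ± 0.09 (SE, adjusted p = 0.0684 by edgeR). It is descriptive, because the position met the lower thresholds in control animals alone. Its adjusted p ranged from 0.000474 with DESeq2 to 0.28 over 17 alternatives, and DESeq2 alone called it. 18S nucleotide 1310, a uridine, was at 1.15 ± 0.12% in control and 0.90 ± 0.04% in Rnmt cKO animals (SD, n = 4 each), and its log2 difference of -0.36 ± 0.09 had an adjusted p of 0.121 by edgeR. It reached the CMC termination of 1% through the control animals alone, so this difference is descriptive. Its adjusted p was under 0.05 in 3 of 17 alternatives, at 0.0310 with DESeq2, 0.0461 with median-ratio scaling and 0.0499 with TMM scaling of edgeR, and 0.331 at most. 5.8S nucleotide 22 was at 2.07 to 2.15% in control and 2.36 to 3.00% in Rnmt cKO animals, with a log2 difference of 0.33 ± 0.09 and an adjusted p of 0.147 by edgeR. DESeq2 alone of 17 alternatives called it (adjusted p = 0.0207), and the others gave up to 0.409. At 28S nucleotide 157 and at 5.8S nucleotide 22 the interaction had an adjusted p of 0.784 by edgeR. At 18S nucleotide 1310 the mock log2 difference was -0.31 ± 0.11 and the interaction -0.05 ± 0.15 (SE, adjusted p = 0.658 and 0.933 by edgeR).

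In the mock libraries the 3 smallest p were at 18S nucleotide 1246 and at 28S nucleotides 4685 and 4688, each with an adjusted p of 0.658 by edgeR. Mock termination at the 28S nucleotides, both of the run near the 3′ end, was lower in Rnmt cKO animals (log2 differences of -0.67 ± 0.18 and -0.66 ± 0.21, SE). Their CMC termination was lower too (-0.70 ± 0.28 and -0.89 ± 0.32, SE). At 18S nucleotide 1246 the mock termination was 1.49, 1.27, 1.12 and 1.44% in control and 1.82, 1.97, 2.09 and 1.82% in Rnmt cKO animals, and the CMC termination was 2.67 ± 0.34% and 3.57 ± 0.57% (SD, n = 4 each), so that the log2 ratio, 0.96 and 0.85, moved little. Because mock libraries with the same number deviated together, the fit with the number as a replicate block stands beside this one. It called 2 weak positions, 28S nucleotides 3477 and 4210, both lower in Rnmt cKO animals (log2 differences of -0.88 ± 0.14 and -0.63 ± 0.11, SE, adjusted p = 0.0401 and 0.0451 by edgeR), among 41 of the 4018 positions (1.02%). Both met the lower thresholds in Rnmt cKO animals alone, with mean log2 ratios of 0.25 against 1.04 and 0.25 against 0.85, and a low mock termination raises that ratio, so these differences too are descriptive. Without the block both had an adjusted p of 0.658, and over 17 alternatives it was under 0.05 in 3 for each, with ranges of 0.00893 to 0.913 and 0.0152 to 0.913. At 28S nucleotide 3477 the CMC termination did not move with it (log2 difference -0.07 ± 0.11, SE). Without both animals numbered 1, the mock test called 8 weak positions among 132 (3.29%), again with 28S nucleotides 3477 and 4210 among them.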

How the data were processed

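Per the labels and the study's methods, RNA of each animal was treated with CMC or mock treated and sequenced for 75 cycles. Per the study's methods, the authors extracted a random barcode of 10 nt, trimmed adapters, aligned reads with bowtie2 to custom rRNA sequences, removed duplicates by barcode and dropped alignments with a mapping quality under 20. The submitters' processing notes instead list STAR 2.5.2b and mm10, and the deposited positions are on separate rRNA sequences. The deposited files give counts of read starts per nucleotide, not normalised and without coverage, so coverage was replaced by the starts in a window of 65 nt (75 less 10). This equals the coverage if every read spans 65 nt, and where reads are shorter it bounds the true termination from below. Each library held 1130058 to 2165668 starts, with a median of 97 to 277 at a weak position and a minimum of 0 to 36.

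Members and lists were chosen with earlier results of these data known. Groups came from the sample titles. Genotypes were compared with edgeR 4.0.16 (glmQLFit, glmQLFTest, log window coverage as offset, Benjamini-Hochberg over 4018 positions). The fit was checked on simulated counts with the same dispersion at every position and no effect of library or number. That check does not give its power or error rate in these libraries. The interaction used 16 libraries with the animal as block, and the other tests 8 libraries each. Alternatives were DESeq2 1.42.0, limma 3.58.1, windows of 50 and 30 nt, pseudocounts of 0.05 and 0.5, TMM and median-ratio scaling, a filter of 10 mean starts, the number as replicate block (edgeR and limma), and leaving out animals. Same-numbered mock libraries of the 2 genotypes correlated in their deviations (Pearson r 0.634, 0.398, 0.134 and 0.371 over positions). CMC libraries did not (-0.33 to -0.01), nor did every pair of ratios (0.04 to 0.58). The labels do not say what a number shares.

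The positions named were the 6 highest in log2 ratio and in CMC termination, the 3 smallest p of each test, 2 on each side of each threshold, up to 3 in 5.8S and in 5S, and 4 next to sites. Others are named where a run or a call is described and were picked after their values were seen. Bases of 18S and 5S were read from GENCODE release M21 transcripts (GRCm38). 28S and 5.8S bases were not analysed here.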

Additional observations from a re-analysis of the deposited data

Results flagged for a closer look

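In 72 groups of 4 animals, a value was marked when its gap to the nearest other exceeded Dixon's 95% critical share of the group's range, which chance does in about 5% of groups. There were 6 such values. Of these, 5 were in animals numbered 1. In control animal 1 they were the median log2 ratio of the weak positions, 0.71, the median of all positions that reached 1%, 0.14, and the log2 ratios of 18S nucleotide 1345, 0.94, and 28S nucleotide 3618, 1.51. In Rnmt cKO animal 1 the log2 ratio of 18S nucleotide 1345 was 0.51. The remaining value was that of 5.8S nucleotide 67 in Rnmt cKO animal 3, -0.13. The mock libraries of the animals numbered 1 also stood apart in their counts, and their part in these values was not tested.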

How the results depend on the processing

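The number of weak positions stayed within 1.5 times of 341 under all alternatives but the pseudocount of 0.5, which gave 225, all of them among the 341. Windows of 50 and 30 nt gave 394 and 465, with 307 and 272 of the 341, a pseudocount of 0.05 gave 355, and leaving out 1 animal gave 302 to 373. The share with uridine upstream in the placed stretches of 18S was 85.9% with the window of 30 nt. It was 87.0 to 90.9% when 1 animal was left out. Counts called in the genotype tests started from 0. For the interaction, DESeq2 called 1 (0.293%) against 10 (0.249%). Leaving out 1 animal called 0 against 0 to 1, the 1 (0.0249%) without control animal 1. Leaving out both animals numbered 1 called 0 against 2 (0.0498%), and the replicate block 0 against 0. For the CMC termination, DESeq2 called 5 (1.47%) against 113 (2.81%), and limma 0 against 1 (0.0249%). TMM and median-ratio scaling each called 1 (0.293%, 18S nucleotide 1310) against 13 (0.324%). Leaving out 1 animal called 0 to 4 against 0 to 26. Of these, the fit without control animal 1 called 4 (1.17%) against 26 (0.647%), and that without Rnmt cKO animal 1 called 0 against 1 (0.0249%). Leaving out both animals numbered 1 called 3 (0.88%) against 16 (0.398%), and the replicate block 0 against 0. For the mock termination, DESeq2 called 0 against 1 (0.0249%). The replicate block called 2 (0.587%) against 41 (1.02%), and with limma 2 (0.587%) against 39 (0.971%). Leaving out 1 animal called 0 against 0, and leaving out both animals numbered 1 called 8 (2.35%) against 132 (3.29%). The cause of these differences was not tested. The fits with limma and a block, those without both animals of a number, DESeq2, median-ratio scaling and the filter of 10 starts for single positions, and the uridine shares without an animal were chosen after seeing the data. Of 340 alternative values of the log2 ratios of named positions, 333 moved by less than 1 SD over animals and the other 7 were under the pseudocount of 0.5. Of 153 alternative genotype differences, taken at the 3 smallest p of each test, 147 kept direction and side of the threshold. The other 6, also in the same direction, passed it: DESeq2 at 28S nucleotides 157 and 4578, 18S nucleotide 1310 and 5.8S nucleotide 22, and TMM and median-ratio scaling at 18S nucleotide 1310. At positions with few mock starts, such as 28S nucleotide 4153, the ratio rests on small counts.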
